A study of Homo sapiens with 8 samples.

Results

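NPM1, NPM3, NCL, NOLC1 and TCOF1 encode abundant chaperones and scaffolds of the nucleolus. They were taken as the 5 rows whose Ensembl identifiers carry these symbols, out of 58395 genes listed in each count file, and all 5 were among the 16503 genes tested. RNA came from OCI-AML3, an established human acute myeloid leukaemia line that is known to carry a mutated NPM1 allele. The counts do not separate the mutant from the wild-type allele.

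Cells had been infected with a lentiviral hairpin, either shCT or shFBL. FBL encodes fibrillarin, which methylates ribosomal RNA as part of box C/D snoRNPs. Before lysis all cells were exposed for 15 min to 100 µg/mL of cycloheximide, which stops ribosomes where they sit on the message. Part of each cleared lysate was kept as input RNA, and another part was run on a sucrose gradient from which polysome RNA was taken. The sources used here do not give which of the 14 gradient fractions made up the polysome RNA. The genotype label is WT for the libraries called control below and FBL knockdown for those called knockdown. With 2 libraries for each label in each kind of RNA, there were 4 groups and 8 libraries. No label states that libraries 1 and 2 of a group are separate cultures or infections. A p-value here therefore weighs a difference only against the spread among these samples, which may be technical in part.

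The nucleolus is the site where ribosomal RNA is transcribed, modified and assembled into pre-ribosomal particles. NPM1 (nucleophosmin) is a histone chaperone whose oligomers, through acidic tracts and RNA-binding ends, help to form the granular component, the outer layer of the nucleolus. The leukaemia mutation adds a nuclear export signal that moves much of the protein to the cytoplasm. NPM3 is a smaller relative of the same nucleoplasmin family and binds NPM1. NCL (nucleolin) is an RNA-binding protein with a long acidic amino-terminal region. NOLC1 (Nopp140) and TCOF1 (treacle) are paralogous phosphoproteins with serine-rich acidic repeats, which carry snoRNPs and bind RNA polymerase I.

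A feature shared by the encoded proteins, and not used to choose the genes, is the acidic tract. Below is the 30-codon window of each principal coding sequence that holds the most codons for aspartate or glutamate (GAA, GAG, GAT and GAC, in capitals), read 5′ to 3′ from GENCODE v29 transcripts on GRCh38. The windows show how far the members differ in a feature that these proteins are known for.
NCL, coding bases 700 to 789: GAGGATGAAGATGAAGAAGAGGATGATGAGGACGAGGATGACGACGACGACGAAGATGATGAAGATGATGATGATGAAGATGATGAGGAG
NPM1, coding bases 475 to 564: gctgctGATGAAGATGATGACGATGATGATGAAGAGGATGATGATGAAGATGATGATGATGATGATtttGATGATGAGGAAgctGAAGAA
NPM3, coding bases 403 to 492: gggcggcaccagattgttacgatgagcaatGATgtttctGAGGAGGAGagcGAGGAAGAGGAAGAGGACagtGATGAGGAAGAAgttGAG
TCOF1, coding bases 196 to 285: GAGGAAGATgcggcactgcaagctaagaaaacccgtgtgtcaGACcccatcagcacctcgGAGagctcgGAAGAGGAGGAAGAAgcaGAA
NOLC1, coding bases 331 to 420: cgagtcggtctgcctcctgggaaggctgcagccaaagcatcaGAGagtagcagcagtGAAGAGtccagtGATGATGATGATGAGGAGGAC
In the NCL window 30 of 30 codons were acidic, and 0.0230% of 13055 coding genes had a window with as many. The NPM1 window held 26, which 0.214% of genes matched or exceeded. NPM3 reached 15 (5.31% of genes), TCOF1 11 (23.4%) and NOLC1 10 (35.2%), so the densest 30 codons of the last pair were not unusual. Over the whole coding sequence, 24.8% of NCL codons, 22.1% of NPM1, 18.0% of NPM3, 15.2% of NOLC1 and 13.1% of TCOF1 codons were acidic.

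Translation of many mRNAs of the ribosome machinery is known to depend on a run of pyrimidines at the 5′ end of the message. Start-site windows were therefore set beside the polysome values. Each shows 60 bases before and 20 after a RefSeq start (GRCh38.p14), with the longest pyrimidine run that touches positions -10 to 20 in capitals. The table matched 3 of the 5 members, NPM1 with 2 starts, of which the downstream one is shown. Windows of NOLC1 and TCOF1 are not shown.
NPM1, chr5:171387789-171387868, plus strand: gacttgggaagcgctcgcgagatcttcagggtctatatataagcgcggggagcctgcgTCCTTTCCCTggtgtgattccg
NPM3, chr10:101783427-101783506, minus strand: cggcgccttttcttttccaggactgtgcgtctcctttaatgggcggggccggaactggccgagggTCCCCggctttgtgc
NCL, chr2:231464465-231464544, minus strand: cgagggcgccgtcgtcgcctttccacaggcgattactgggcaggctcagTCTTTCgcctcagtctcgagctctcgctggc
The downstream NPM1 start had a run of 10 pyrimidines across positions -2 to 8, and 9.25% of 35116 promoter entries had a run at least as long. The upstream NPM1 start had a run of 7 at positions -8 to -2 (25.8% of entries). NCL had one of 6 at -11 to -6 (37.8%) and NPM3 one of 5 at 6 to 10 (56.4%). The runs of NCL and of the upstream NPM1 start thus lay wholly before the annotated start, and that of NPM3 after it. Motifs were sought on both strands over windows longer than those printed, so a match need not lie in the letters above. The E-box CACGTG, held by 7.26% of entries, matched none of these starts, nor did TATAAA, held by 11.5%. GGGCGG, held by 45.0% of entries, matched at NCL and NPM3. CCAAT, held by 34.6%, matched at NCL and at the upstream NPM1 start. Such matches describe the letters and do not show a bound site.

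On GRCh38 in GENCODE v29, NPM1 spans chr5:171387116-171411137 on the plus strand and NPM3 chr10:101781325-101783413 on the minus strand. NCL lies at chr2:231453531-231483641 on the minus strand. NOLC1 spans chr10:102152176-102163871 and TCOF1 chr5:150357629-150400308, both on the plus strand. All 5 are protein coding. NCL alone overlapped other annotated genes, the small nucleolar RNAs SNORA75, SNORD20 and SNORD82 inside its span, and these held 0 counts in all 8 libraries. NPM1 has many processed copies: of 45 annotated NPM1 pseudogenes, 37 had no read. The pseudogenes together held reads equal to 0.185% to 0.704% of those of NPM1, lowest in polysome control 1 and highest in polysome control 2. Levels are given as CPM, a gene's counts for every 1000000 counts of its library after TMM scaling, which corrects library totals for composition. NPM1P27 had the most reads of these copies, at 4.19 to 6.82 CPM in input libraries, 6.20 CPM in polysome control 2 and 1.77 to 2.37 CPM in the other 3 polysome libraries. Its span overlaps the gene FAM172A, and the origin of its reads was not tested. NPM1P9 had reads in the 4 input libraries only, at 0.275 to 0.625 CPM. The 2 NCL pseudogenes had 0 reads.

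Gene counts per library ranged from 22171255 in polysome knockdown 2 to 43118190 in input knockdown 2, and each member had at least 1819 reads in every library, the lowest being NPM3 in input control 2. FBL, the targeted gene, did not fall with the knockdown label. Its input level stood at 250 and 88.1 CPM in control 1 and 2 and at 253 and 84.2 CPM in knockdown 1 and 2. In polysome RNA it stood at 498 and 163 CPM in control and 499 and 165 CPM in knockdown. Library 2 differed from library 1 by -67.2% to -64.8% in the 4 groups, so the deposited counts go against the labels, and every difference by label below compares libraries as labelled. Marker genes were read for lineage and cannot name the line. Of 8 myeloid markers 6 exceeded a median of 10 CPM, among them SPI1 at 936 CPM and CEBPA at 308 CPM. MPO (1.34 CPM) and ITGAM (2.58 CPM) were low. HOXA9 (86.1 CPM), HOXA10 (127 CPM) and MEIS1 (22.1 CPM), taken here as markers of NPM1-mutated leukaemia, were present, and PBX3 of the same list was at 9.28 CPM. They do not show the mutation itself. Of 12 markers of other blood cells 11 had a median under 1 CPM. The T cell markers CD3E, CD3D and CD2 had 0 reads. Of the 4 non-blood markers 3 were under 1 CPM, and PECAM1, an adhesion molecule of endothelium that blood cells also carry, was at 64.4 CPM. Within each fraction, genes averaging 10 CPM or more were counted where a library lay at least 2-fold outside the other 3. Polysome knockdown 2 had 103 such genes below and 25 above, polysome control 2 had 8 below and 55 above, and each of the other 6 libraries had at most 14 below and 3 above.

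**Figure D1:**
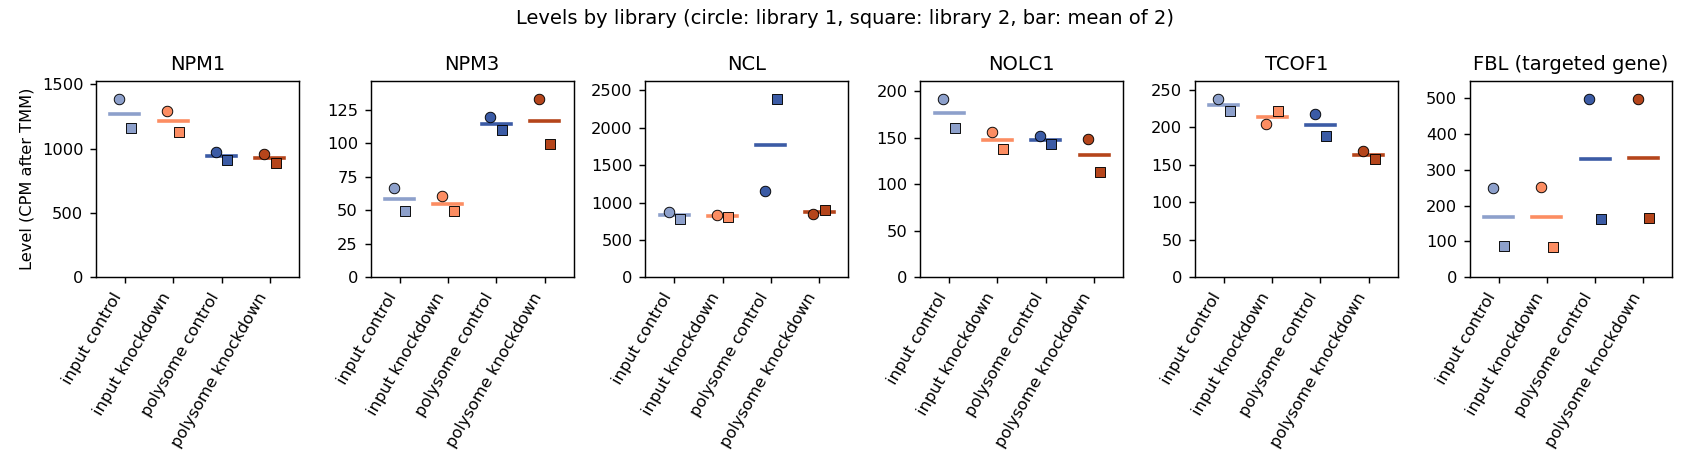
Levels in CPM after TMM scaling for the 5 members and FBL in the 4 groups. Each point is a library (circle number 1, square number 2) and each bar the mean of 2. NPM3 is higher in both polysome groups, NPM1 lower, and 1 NCL library, polysome control 2, stands at 2387 CPM.

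NPM1 and NCL were among the most abundant transcripts of these cells. Among the 16503 tested genes ordered by CPM, NPM1 ranked between 62 and 169 and NCL between 37 and 174. TCOF1 ranked between 664 and 1408, NOLC1 between 866 and 1909.5 and NPM3 between 1701 and 3609.5. The members together took 0.202% to 0.332% of all gene counts, most in polysome control 2.

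Levels of different genes were compared per kilobase of the principal transcript. In input control RNA, NPM1 stood at 724 ± 92.4 CPM per kb (SD, n = 2) and NCL at 206 ± 17.4. NPM3 followed at 66.3 ± 14.0, TCOF1 at 47.5 ± 2.33 and NOLC1 at 44.9 ± 5.54 CPM per kb. TCOF1 and NOLC1 did not differ beyond their spread, whereas NPM1, NCL and NPM3 each lay apart from the next in order in both libraries. This order depends on length: per kb of all annotated exons, TCOF1 was at 20.1 CPM per kb, below NOLC1 at 44.4, NPM1 at 332 and NCL at 120. In polysome control RNA, NPM1 stood at 534 ± 24.9 and NCL at 440 ± 215 CPM per kb (SD, n = 2), and their libraries overlapped. NPM3 stood at 131 ± 7.80 CPM per kb there, further above NOLC1 (37.5 ± 1.49) and TCOF1 (41.9 ± 4.30).

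The comparison of polysome with input RNA asks which messages were over- or under-represented in the ribosome-bound fraction relative to the whole lysate. NPM3 was higher in polysome RNA under both labels, 1.97-fold in control and 2.12-fold in knockdown, and NPM1 was lower under both, at 0.738 and 0.764 of its input level, so these 2 members of 1 protein family lay on opposite sides. NCL was higher in control polysomes and TCOF1 lower in knockdown polysomes. NOLC1 was not called under either label. In control libraries 3 of 5 members passed an adjusted p of 0.05 against 29.1% of all tested genes, and in knockdown libraries 3 of 5 against 28.5% (edgeR quasi-likelihood F test with Benjamini-Hochberg adjustment over all tested genes). Ranges did not overlap for 5 of 5 members in control and 4 of 5 in knockdown libraries, against 66.2% and 64.6% of all genes. The members' median log2 difference was -0.18 in control and -0.16 in knockdown. Over all tested genes the median was -0.13 and -0.18, and over genes averaging 10 CPM or more, as all members do, it was 0.13 and 0.061. CPM are relative to each library, so these values do not measure how much of a message was on ribosomes. Per the protocols both portions came from the same supernatant, so the fractions of a lysate hold RNA of the same cells. Between labels or library numbers, fewer cells of a state and less RNA per cell cannot be told apart in these bulk samples. Marker levels moved with the fraction as well. The summed level of the 8 myeloid markers lay between 1062 and 1348 CPM in input and between 1478 and 1758 CPM in polysome libraries. SPI1 and CEBPA, with medians of 936 and 308 CPM, make up most of that sum, so it does not show a rise of each marker. The summed level of the 4 markers of NPM1-mutated leukaemia went the other way, from 269 to 314 CPM in input and from 169 to 221 CPM in polysome libraries. The cause of these shifts between fractions was not tested.

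NPM3 stood at 66.9 and 49.5 CPM in input control and 60.8 and 49.4 CPM in input knockdown. In polysome RNA it stood at 119 and 110 CPM in control and at 133 and 99.8 CPM in knockdown. Every polysome library was above every input library. The log2 difference was 0.98 (SE 0.19, edgeR adjusted p = 0.0033) in control and 1.08 (SE 0.19, edgeR adjusted p = 0.0022) in knockdown libraries. By lysate it was 0.84, 1.15, 1.13 and 1.01 in control 1, control 2, knockdown 1 and knockdown 2.

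NPM1 stood at 1387 and 1157 CPM in input control, and at 1291 and 1132 CPM in input knockdown. Its polysome levels were 970 and 908 CPM in control and 962 and 889 CPM in knockdown. All 4 polysome libraries were below all 4 input libraries. The log2 difference was -0.44 (SE 0.11, edgeR adjusted p = 0.013) in control and -0.39 (SE 0.11, edgeR adjusted p = 0.024) in knockdown libraries, which missed the threshold under RLE scaling (adjusted p = 0.0501) and in the 4 knockdown libraries alone (0.061). Without input control 1 or polysome control 2 the control value missed the threshold too (adjusted p = 0.059 and 0.078), and so did the knockdown value without input knockdown 1 or polysome knockdown 2 (0.220 and 0.069).

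Set against each other within a library, with no scaling between libraries, NPM3 gave 42.7 to 48.2 reads for every 1000 NPM1 reads in the 4 input libraries. In the 4 polysome libraries it gave 112 to 139. The 2 ranges are far apart, and the ratio shows unequal representation of the pair and not which of the 2 changed.

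**Figure D2:**
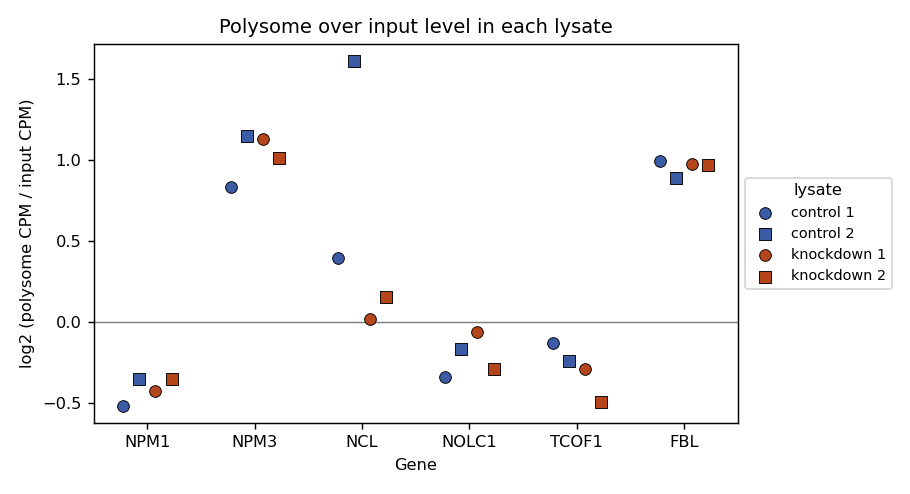
Log2 of polysome over input CPM in each of 4 lysates (colour: label, shape: library number). NPM1, NOLC1 and TCOF1 are below 0 in all 4 lysates and NPM3 and NCL above 0, with NCL ranging from 0.02 to 1.61.

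NCL had input levels of 880 and 780 CPM in control and 830 and 807 CPM in knockdown. Its polysome levels were 1159 and 2387 CPM in control and 841 and 899 CPM in knockdown. The value of polysome control 2 was far above the other 7 libraries, which lay between 780 and 1159 CPM. The control difference between polysome and input was 1.10 on the log2 scale (SE 0.25, edgeR adjusted p = 0.0080). It came to 0.47 without polysome control 2 (adjusted p = 0.019) and 1.52 without polysome control 1. In knockdown libraries it was 0.09 (SE 0.25, edgeR adjusted p = 0.839), with a 95% interval of -0.46 to 0.64.

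TCOF1 stood at 238 and 222 CPM in input control and 205 and 221 CPM in input knockdown. Its polysome levels were 217 and 188 CPM in control and 168 and 157 CPM in knockdown. The knockdown polysome libraries were the lowest 2 of the 8. Polysome against input was -0.18 (SE 0.11, edgeR adjusted p = 0.256) in control and -0.39 (SE 0.11, edgeR adjusted p = 0.024) in knockdown libraries. The control difference passed the threshold only with a filter at a mean of 10 CPM (edgeR adjusted p = 0.019). That knockdown call was lost under RLE scaling (adjusted p = 0.052), in the 4 knockdown libraries alone (0.055) and without input knockdown 1 (adjusted p = 0.072), input knockdown 2 (0.159) or polysome knockdown 2 (0.075).

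NOLC1 stood at 192 and 161 CPM in input control and 156 and 138 CPM in input knockdown, and at 152 and 143 CPM in polysome control and 149 and 113 CPM in polysome knockdown. Polysome against input was -0.26 (SE 0.15, edgeR adjusted p = 0.234) in control and -0.16 (SE 0.15, edgeR adjusted p = 0.458) in knockdown libraries. The control difference passed the threshold with a filter at a mean of 10 CPM (-0.42, edgeR adjusted p = 0.025). With no filter it passed as well (-0.34, edgeR adjusted p = 0.0499). Across the 4 lysates NPM1, NOLC1 and TCOF1 were each lower in polysome than in input RNA, as were 25.7% of all tested genes. NPM3 and NCL were higher in all 4, as were 23.6% of genes.

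The comparison of the labels sets the libraries labelled FBL knockdown against those labelled WT. FBL itself did not differ between them, with log2 differences of -0.0068 in input and 0.0076 in polysome RNA. It differed by library number inside each group, and differences by library number are part of the spread used here. The results by label therefore cannot show what lower FBL does to these messages. None of the 5 members passed the threshold in input RNA, in polysome RNA or in the difference between the 2 fractions. In input RNA 0 of 5 were called, and 0% of all genes were called. None of the members had an unadjusted p under 0.05 there, and DESeq2 called none of them. Over all genes DESeq2 called 65, limma-voom 3 and the edgeR fit with no filter 83. All 5 estimates were below 0, from -0.26 for NOLC1 to -0.02 for NCL, with a median of -0.079 against 0.0019 over all genes. NOLC1 and TCOF1 had control libraries that were both above both knockdown libraries, as had 20.3% of all genes, and 41.4% of genes did not overlap in either direction. The 95% interval for NPM1 by label was -0.31 to 0.17, which does not hold -0.44, its difference between fractions in control libraries. The intervals were -0.50 to 0.34 for NPM3, -0.57 to 0.53 for NCL, -0.59 to 0.07 for NOLC1 and -0.35 to 0.13 for TCOF1.

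In polysome RNA 0 of 5 members were called, against 0.879% of all genes (145). DESeq2 called none of the 5 and 1203 genes in all, and the edgeR count over all genes ranged from 0 without polysome control 2 to 1455 without polysome knockdown 1. NCL and TCOF1 had an unadjusted p under 0.05, at 0.0021 and 0.016. NCL was lower in the knockdown label by a log2 difference of -1.03 (SE 0.25, edgeR adjusted p = 0.083) and TCOF1 by -0.32 (SE 0.11, edgeR adjusted p = 0.174). Their ranges did not overlap, as for 39% of all genes and for 23.6% in the lower direction. With the library number as a block, NCL passed the threshold at -0.94 (edgeR adjusted p = 0.049), as did 551 genes in all. NOLC1 was at -0.17, NPM1 at -0.02 and NPM3 at 0.03. The NPM1 interval was -0.27 to 0.22 and that of NPM3 -0.39 to 0.44. Without polysome control 2 the NCL difference was -0.41 (adjusted p = 0.160), and without polysome control 1 it was -1.46 (adjusted p = 0.0010).

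The interaction, the polysome change by label less the input change, was called for 0 of 5 members and for 0% of all genes. DESeq2 called none of the 5 and 4 genes in all. Of the members, NCL had an unadjusted p under 0.05 (0.017). Its estimate was -1.01 (SE 0.35, edgeR adjusted p = 0.767), which moved to -0.39 without polysome control 2 and to -1.44 without polysome control 1 (adjusted p = 0.012). The other 4 estimates lay between -0.21 for TCOF1 and 0.10 for NPM3.

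**Figure D3:**
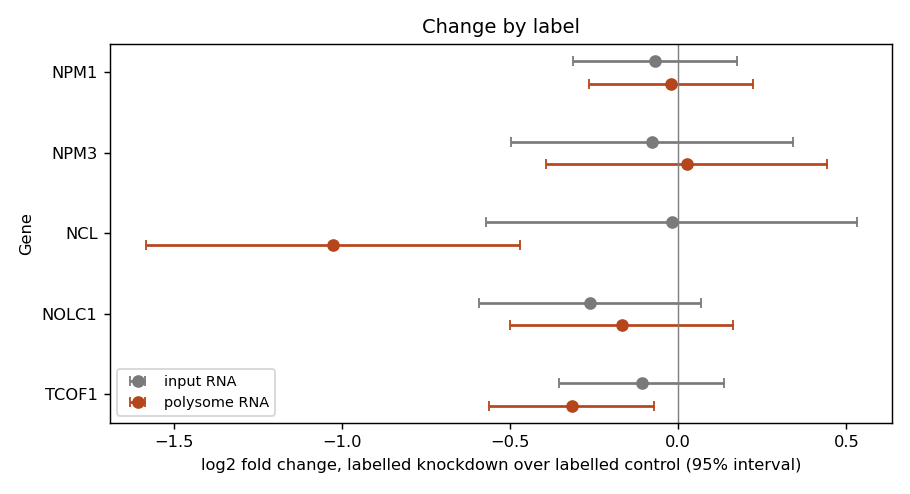
Log2 fold change of the libraries labelled knockdown over those labelled control, with 95% intervals from the edgeR fit (2 libraries in each group). In input RNA all intervals include 0. In polysome RNA those of NCL and TCOF1 lie below 0, and neither passed the adjusted threshold.

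Because FBL differed by library number and not by label, the members' differences between library 2 and library 1 are given as a description, with no test. NPM1 was lower in library 2 in all 4 groups, with differences of -16.6% to -6.39%. NPM3 was lower in all 4 groups as well (-26.0% to -8.10%), and so was NOLC1 (-24.2% to -5.45%). Of all tested genes 12.1% were lower in library 2 in all 4 groups. TCOF1 was lower in 3 groups and 8.13% higher in input knockdown. NCL was lower in both input groups (-11.3% and -2.71%) and higher in both polysome groups, by 106% in control and 6.91% in knockdown.

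NCL in polysome control 2 was 2.06-fold above the highest of the other 7 libraries. Of 8159 genes averaging 10 CPM or more, 17 (0.208%) exceeded all other libraries by 2-fold in polysome control 2. The other 4 members were not among them, at 0.65 to 0.82 of the highest other library. That mean includes polysome control 2 itself. ZNHIT6 (4.92 to 8.39 CPM elsewhere, 43.0 CPM here), SMARCC2, PTMAP5 and MYO18A reached it only through this library. The counts below were not redone without such genes. The 17 genes, chosen by their values, included the nuclear noncoding RNA MALAT1 (304 CPM against 2.22 to 28.8 CPM elsewhere), the checkpoint mediator CLSPN and the translation initiation subunit EIF3A. They also held ANP32E and ANP32B, acidic histone chaperones whose proteins end in a long acidic tail, and ZNHIT6, an assembly factor of box C/D snoRNPs. ANP32E stood at 1152 CPM in this library and between 359 and 476 CPM in the others. ANP32B stood at 939 CPM against 289 to 455 CPM.

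A shared trait of these genes was looked for in their coding sequences, after their names were known. Codons for aspartate and glutamate begin with GA, so an acidic tract can be rich in purines, as in NCL. It need not be: NPM1, with 26 acidic codons in its window, had no 90-base window above 73.3% purines. The most purine-rich 90-base coding window was at least 80% A or G in 14 of the 15 coding genes among the 17, with BBC3 the exception. Of all 13055 coding genes, 5.97% had such a window. The window reached 83.3% in NCL and 87.8% in TCOF1, and stayed at 76.7% in NOLC1 and 73.3% in NPM1 and NPM3.

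Shares were also taken over all coding genes of that level. These still include the genes chosen above and use the same values, so they are not separate support for the pattern. In polysome control 2, 21.8% of the 188 genes with a window of at least 85% purines were at least 2-fold above the median of the other 3 polysome libraries. The share was 5.13% of 390 genes at 80% to 85% and 0.363% to 0.824% in the 4 lower classes. In the other 3 polysome libraries the shares of the top class were 0.532%, 0.532% and 0%. NCL was 2.65-fold above the median of the other 3, a level that 2.82% of the genes in its class reached. TCOF1, in the top class, was 1.12-fold above it, and NPM1, NPM3 and NOLC1 were at 0.94, 0.92 and 0.96 of it. In these same values, high purine content went with a raised level in this library for many genes and not for TCOF1. A longer coding sequence offers more windows, and coding length was not taken into account. Whether purine content had a part in the NCL value was not tested.

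**Figure D4:**
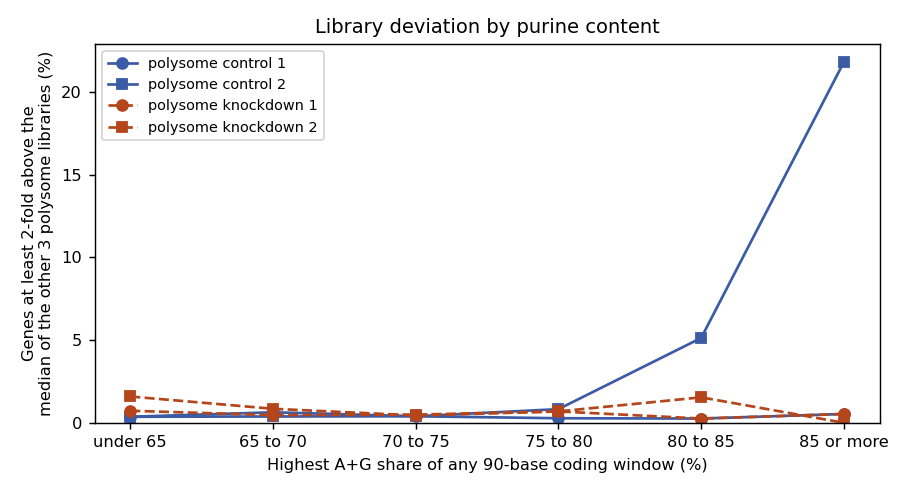
Share of genes (mean of at least 10 CPM over all 8 libraries) that were at least 2-fold above the median of the other 3 polysome libraries, by the highest purine share of any 90-base coding window, for each polysome library. Polysome control 2 reaches 21.8% in the top class, while the other 3 libraries stay at or below 1.59% in every class. The classes include the genes chosen by their values in polysome control 2.

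The genes most like each member over the 8 libraries are given by Pearson's r of log2 CPM among the 8159 genes, as a description, since all points share the same libraries and the fraction sets most of the spread. NPM1 was closest to RAB18 (r = 0.99), a small GTPase, WDHD1 (0.99), a replication factor, and IPO7 (0.98), a nuclear import receptor of ribosomal proteins. All 3 were lower in every polysome library than in every input library, RAB18 with 61.2 to 88.8 CPM in input and 40.7 to 50.3 CPM in polysome RNA. NPM3 was closest to FAM83G, TAGLN2 and LRWD1 (each 0.99), and TAGLN2, an actin-binding protein, had 1831 to 2048 CPM in input and 3094 to 3906 CPM in polysome RNA. NCL was closest to GIGYF2 (0.99), ANP32E (0.98) and VIRMA (0.98), each highest in polysome control 2. NOLC1 was closest to CHERP (0.97), PAFAH1B2 (0.96) and DIDO1 (0.95). TCOF1 was closest to the antisense transcript SVIL-AS1 (0.98), PPP4R3B (0.97) and ALKBH8 (0.97). Strand use in counting is not given, so reads of SVIL-AS1 cannot be told apart from those of SVIL. Between members, r was 0.75 to 0.76 for the 3 pairs among NPM1, NOLC1 and TCOF1 and -0.74 for NPM1 with NPM3.

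Partner genes of the members were followed in 5 lists, all of whose 59 genes were tested. Their counts between polysome and input stand beside 29.1% of all genes called in control and 28.5% in knockdown libraries, over both directions, and a list's count is not set apart from that share by any test. Of 16 granular component and nucleolar RNA-binding proteins, 4 rose and 4 fell in control polysome RNA against input, with a median of 0.29 against -0.13 over all genes and 0.13 over genes averaging 10 CPM or more. In knockdown libraries 2 rose and 4 fell (median 0.03). NOC2L, a nucleolar histone-binding protein, rose in control by 0.91 on the log2 scale (SE 0.11, edgeR adjusted p = 0.00026). GNL2, a GTPase of the large-subunit pathway, fell by 2.37 in control, from 93.5 to 18.1 CPM, and by 1.67 in knockdown. In knockdown the largest decrease was that of LYAR, a nucleolar zinc finger protein (-1.72, edgeR adjusted p = 0.015), and the largest called increase that of SENP3, the SUMO protease that acts on NPM1 (0.53, adjusted p = 0.048). By label in polysome RNA, 3 of the 16 fell in knockdown, NOC2L (-0.81), SURF6 (-0.74) and MYBBP1A (-0.67), against 0.879% of all genes. Without polysome control 2 none of the 16 was called there, nor any gene of 17767 tested, and NOC2L was at -0.83 (adjusted p = 0.124).

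Of 11 snoRNP and Cajal body genes around NOLC1 and TCOF1, 3 rose and 2 fell in polysome RNA under both labels, and without polysome control 2 the control counts were 2 and 2. NHP2, a core protein of box H/ACA snoRNPs, rose by 1.08 in control and 0.87 in knockdown, while NOP58, which forms the box C/D core with fibrillarin and NOP56, fell by 1.06 in control. In knockdown NOP58 fell by 1.44. NOP58 lay at 196 CPM in input control and 93.9 CPM in polysome control, and without polysome control 2 it fell by 1.70 in control libraries. Of the 14 genes of the RNA polymerase I apparatus, 4 rose in both, 3 fell in control (2 without polysome control 2) and 2 in knockdown. POLR1H, a small polymerase subunit, rose by 1.12 and 1.01, and TAF1D, a subunit of the selectivity factor SL1 whose introns host snoRNAs, fell by 2.08 and 2.00.

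Among 9 kinases, ubiquitin ligase and transport factors of the members, none rose, 5 fell in control and 4 in knockdown polysome RNA, with medians of -0.50 and -0.59. Without polysome control 2, 4 fell in control. CUL3, whose ligase with KBTBD8 modifies NOLC1 and TCOF1, fell by 1.21 and 1.00. XPO1, the exportin that carries mutant NPM1 out of the nucleus, fell by 0.84 and 0.95. Of 9 acidic histone chaperones 5 rose in control, with a median of 0.54, and in knockdown 2 rose and 1 fell (median 0.14). Without polysome control 2, 3 rose in control. ANP32E showed the largest increase in control at 1.03 (SE 0.30, edgeR adjusted p = 0.026), which moved to 0.25 (adjusted p = 0.194) without that library. NAP1L4 rose by 0.66 and NAP1L1 fell by 0.31 in knockdown. By label none of these last 4 lists had a called gene in input or polysome RNA.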

How the data were processed

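The authors deposited raw counts of reads per gene for 8 libraries, made on GRCh38 with Trimmomatic 0.38, Bowtie2 and HTSeq 0.11.2 per the submitters' processing notes. The sources used here do not give the annotation release or strand setting. Bowtie2 is not a spliced aligner: reads over exon junctions can go missing or land on processed copies such as NPM1 pseudogenes. Lines that name no gene held 13.2% to 15.0% of reads and were left out. Among them, reads without a unique alignment made up 4.95% in polysome control 2 and 3.41% to 3.75% in the other libraries. GENCODE v29 held 58275 of the identifiers and lacked 120.

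Genes were filtered with filterByExpr and fitted over all 8 libraries, 1 term for each of 4 groups, with TMM scaling and the quasi-likelihood F test of edgeR 4.0.16 in R 4.3.3. Called means a Benjamini-Hochberg adjusted p under 0.05 over 16503 genes. Intervals are 95%. Counting error is small at these depths.

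Alternatives were DESeq2 1.42.0, limma-voom 3.58.1, RLE and upper-quartile scaling, filters, blocks, subsets and each library left out. The list counts without polysome control 2 and the exon-length alternative were chosen after seeing the data. Named genes were the members, FBL, overlapping genes, the 2 highest NPM1 pseudogenes, the 3 most alike genes for each member and, from each list, the largest called increase and decrease among genes over 10 CPM. Other named genes (marker genes, FAM172A, SURF6, MYBBP1A, XPO1, ANP32B, MALAT1, CLSPN, EIF3A, ZNHIT6, SMARCC2, PTMAP5, MYO18A and BBC3) serve checks or were chosen after their values were seen. Members and lists were chosen with earlier results of these data known.

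Per the labels' protocols, input and gradient portions came from the same supernatant, and the title number was taken to mark it. Deviations of the 2 libraries from their group mean correlated between input and polysome at 0.31 in control and 0.36 in knockdown over 8159 genes. Across labels the sources give no more than a shared number; the same correlation was 0.47 between the input groups, 0.18 between the polysome groups and 0.27 for both remaining pairs. The fit was tested on simulated data.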

Additional observations from a re-analysis of the deposited data

How the results depend on the processing

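Each group had 2 libraries and the spread was pooled over groups, so with 1 library left out the lone library is assumed to vary like the others. NPM3 stayed higher in polysome RNA and past the threshold in 16 of 16 alternatives under both labels, NCL in 16 of 16 in control libraries, NPM1 stayed lower and past it in 14 of 16 (control) and 12 of 16 (knockdown), and TCOF1 in 11 of 16 (knockdown). The count of members called between polysome and input in control libraries was 5 (2 higher, 3 lower) with a filter at a mean of 10 CPM. There 4582 of 8162 genes were called. That count was 4 (2 higher, 2 lower) with no filter, where 5520 of 22560 genes were called, and 2 to 3 with a library left out. In knockdown libraries it was 1 under RLE scaling and 1 with the 4 knockdown libraries alone, and 1 to 3 with a library left out. For the labels in polysome RNA it was 1 with no filter, 1 with the replicate block by library number, and 0 to 1 with a library left out. For the difference between fractions it was 1 with no filter and 0 to 1 with a library left out. In each of these last 2 comparisons the gene was NCL; the causes were not tested. With the replicate block by library number NCL was at -0.94 (edgeR adjusted p = 0.049) in polysome RNA, over the alternatives 1.4e-15 to 0.317, and the block called 551 genes in all against 145. The lysate block changed no call of a member. Signs turned only for estimates that were not called. NPM1 by label in polysome RNA was 0.022 with DESeq2, 0.072 with the 10 CPM filter, 0.049 with no filter, 0.022 with RLE, 0.061 with upper-quartile scaling, 0.050 in the 4 polysome libraries alone and -0.078 to 0.049 with a library left out. With a library left out, estimates by label in input RNA ranged from -0.21 to 0.044 for NPM1, -0.29 to 0.13 for NPM3 and -0.12 to 0.047 for NCL. In polysome RNA they ranged from -0.20 to 0.22 for NPM3 and -0.38 to 0.017 for NOLC1. The differences between fractions ranged from -0.0074 to 0.26 for NPM1, -0.12 to 0.39 for NPM3 and -0.12 to 0.30 for NOLC1, and NOLC1 between polysome and input in knockdown libraries from -0.38 to 0.014.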
